A study of Mus musculus with 6 samples.

Results

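MiR-2861 (mmu-miR-2861) and miR-3960 (mmu-miR-3960) are a pair of neighbouring miRNAs known from osteoblasts as one cluster. They were taken from the array by name, with control spots left out, and make up 2 of the 1881 mouse miRNAs measured. The RNA came from endothelial cells (ECs) of the bone marrow of wild-type C57BL/6 mice aged 1 month, sorted by flow cytometry into type H ECs (CD31hiEmcnhi, 3 arrays) and type L ECs (CD31loEmcnlo, 3 arrays). No treatment, transgene or deletion was applied to either group. The labels call the 3 samples of a cell type biological replicates and do not say how many mice each held. They also describe a period in endothelial growth medium on fibronectin before RNA was taken, a step that the methods give for sorted ECs but not in their account of the arrays, and they give the mice as male where the methods give females.

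A miRNA lowers the output of mRNAs that pair with its seed, the bases 2 to 8 of the mature strand. In osteoblasts, the bone-forming cells, miR-2861 has been described as acting on Hdac5, a deacetylase that holds back the osteoblast transcription factor Runx2. MiR-3960 has been described as acting on Hoxa2, a homeobox gene that restrains osteoblast differentiation, and Runx2 has been described as switching on both miRNAs in turn. Type H vessels are the bone capillaries that lie beside osteoprogenitors and couple vessel growth to bone formation, so the comparison asks whether a miRNA pair known from the osteoblast was read at unequal levels in the ECs of these vessels and in those of the sinusoidal type L.

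Both miRNAs lie on the minus strand of chromosome 2. In the RefSeq table (GRCm38.p6) the hairpins are 82 and 73 bases long and are separated by 11 bases. Cdk9, a kinase of transcription elongation, is the nearest gene on one side, and the noncoding gene Gm33457 and then Sh2d3c, a signalling adaptor, follow on the other. No gene of that table spans both hairpins. The hairpins are shown because the sequence that the array reads is short and lies near the 3′ end of each. Capitals mark the site that is complementary to the longer of each miRNA's 2 probes, at bases 61 to 70 of the miR-2861 hairpin and 55 to 66 of the miR-3960 hairpin.
MiR-2861 hairpin, chr2:32712807-32712888: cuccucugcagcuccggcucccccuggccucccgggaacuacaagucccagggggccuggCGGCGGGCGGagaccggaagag
MiR-3960 hairpin, chr2:32712900-32712972: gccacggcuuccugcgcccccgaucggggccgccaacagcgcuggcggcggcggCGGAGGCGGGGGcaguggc

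The mature strand of miR-2861 spans 19 bases at chr2:32712819-32712837 and is 94.7% G and C. Its seed is in capitals.
MiR-2861 mature: gGGGCCUGgcggcgggcgg
The hairpins are 73.2% (miR-2861) and 82.2% (miR-3960) G and C. MiR-3091-3p is the other mature miRNA of the table that has the seed of miR-2861, and it was detected on 0 of the 6 arrays.

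Each miRNA was read by 2 DNA probes of 15 spots each, and the probes of one miRNA differ by a single base at the 3′ end. They are shown because they are among the shortest on the array, where probes ran from 9 to 23 bases with a median of 16. The files give all 4 as unmapped, so they are placed here by their sequence only.
MiR-2861 probe A_54_P00004773: ccgcccgcc
MiR-2861 probe A_54_P00004774: ccgcccgccg
MiR-3960 probe A_54_P00005623: cccccgcctcc
MiR-3960 probe A_54_P00005624: cccccgcctccg
The 9-base probe of miR-2861 is 1 of 3 of that length among 4415 probes. The whole site of none of the 4 probes occurred in another mature miRNA of the table. The last 8 letters of the miR-2861 site occurred in 1 other, miR-5126, where they are in capitals below, and those of the miR-3960 site occurred in 0.
MiR-5126 mature, chr1:84695890-84695911, plus strand: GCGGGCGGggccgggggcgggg

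The scanner software called 263 to 281 miRNAs detected in type H ECs and 295 to 309 in type L ECs. Pearson's r across miRNAs, which are not independent replicates, was 0.998 to 0.999 within a cell type and 0.928 to 0.943 between the cell types, and no 2 arrays held identical values. One slide carried the 3 type H arrays and a second slide the 3 type L arrays, so an effect of the slide and one of the cell type cannot be told apart. Of the control features 9 stood clear of the negative controls on every array. Before normalization 9 of 9 gave more signal with type H ECs than with type L ECs, by 0.21 to 1.37 (log2). Whether this has a part in the results below was not tested. Both arms of miR-126a, the defining endothelial miRNA, were detected on 0 of the 6 arrays. The 6 haematopoietic markers were detected on 0 arrays as well. Of the 7 stromal and mesenchymal markers, 6 were detected on all 6 arrays, and the other, miR-145a-5p, on all type H arrays and 2 type L arrays. Their summed signal was 898 to 1137 on the type H arrays and 765 to 879 on the type L arrays. Their part in the results below was not tested.

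Both members were lower in type H than in type L ECs. After quantile normalization the signal of miR-2861 was 1.75-fold higher in type L ECs and that of miR-3960 was 1.63-fold higher. Neither miRNA had a type H array that reached the lowest type L array. The share of all tested miRNAs without overlap was not counted, so this does not set the members apart. In bulk RNA, fewer cells that hold a miRNA and less of it per cell cannot be told apart. A lower level in type H ECs was no rare event here, because 42.1% of the miRNAs tested were lower in them and 86.8% differed in either direction.

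The signal of miR-2861, the sum of its probe totals before any normalization between arrays, was 46.9, 41.5 and 40.1 on the type H arrays. It was 74.7, 76.2 and 79.6 on the type L arrays. The means were 42.8 ± 3.56 and 76.8 ± 2.49 (SD, n = 3). On the log2 scale after normalization the levels were 5.49, 5.55 and 5.55 in type H ECs and 6.37, 6.33 and 6.33 in type L ECs. Quantile normalization gives the same value to miRNAs of the same rank, so a pair of arrays in each cell type shares a value and the SDs of 0.035 and 0.026 are small. The difference, type H minus type L, was -0.81 on the log2 scale (SE 0.031, 95% interval -0.89 to -0.73, adjusted p = 6.59e-06 by limma with Benjamini-Hochberg adjustment over 311 miRNAs). Without normalization type L ECs held 1.80 times the signal of type H ECs.

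The signal of miR-3960 was 128.2, 106.6 and 106.5 on the type H arrays, where the first array was the brightest. It was 180.1, 177.9 and 182.8 on the type L arrays. The means were 113.8 ± 12.5 and 180.3 ± 2.44 (SD, n = 3). The normalized log2 levels were 6.81, 6.76 and 6.83 in type H ECs and 7.60, 7.50 and 7.44 in type L ECs. The difference was -0.71 (SE 0.050, 95% interval -0.83 to -0.58, adjusted p = 4.56e-05 by limma). Without normalization type L ECs held 1.59 times the signal of type H ECs. For either member alone, an exact two-sided permutation test of the 6 arrays gave p = 0.1, the smallest that 3 against 3 arrays allow.

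**Figure D1:**
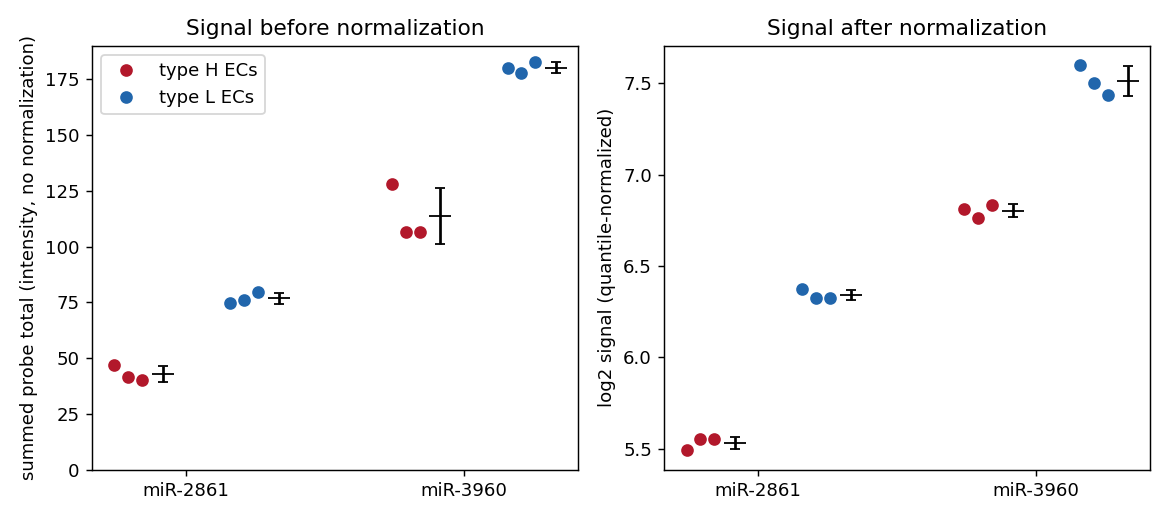
The 6 arrays' values are plotted for each miRNA, as the summed probe total in intensity units before normalization (left, axis from 0) and as the quantile-normalized log2 signal (right), with points for arrays and a bar for the mean and SD of 3 arrays. For both miRNAs every type L array lies above every type H array in both panels, and miR-3960 on the first type H array, at 128.2, stands above the other type H arrays before normalization but not after it.

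The scale of the arrays moved the size of the difference and not its direction. Over the 231 miRNAs detected on all 6 arrays the median difference was 0.11 after quantile normalization, -0.22 after scaling each array to its 75th percentile over these miRNAs and -0.12 with no normalization. Set against that median, the difference of miR-2861 was -0.92, -0.73 and -0.73 in log2 units under these 3 settings, and miR-3960 stood at -0.82, -0.55 and -0.55. After 75th percentile scaling the differences themselves were -0.95 for miR-2861 and -0.77 for miR-3960, in a fit where 56.6% of the tested miRNAs were called lower in type H ECs. In the authors' own log2 table the difference was -0.81 for miR-2861 (adjusted p = 1.16e-05, limma) and -0.71 for miR-3960 (adjusted p = 0.000116). A second background correction, normexp with an offset of 50 added to every spot, gave the smallest differences for both, -0.55 for miR-2861 and -0.59 for miR-3960.

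**Figure D2:**
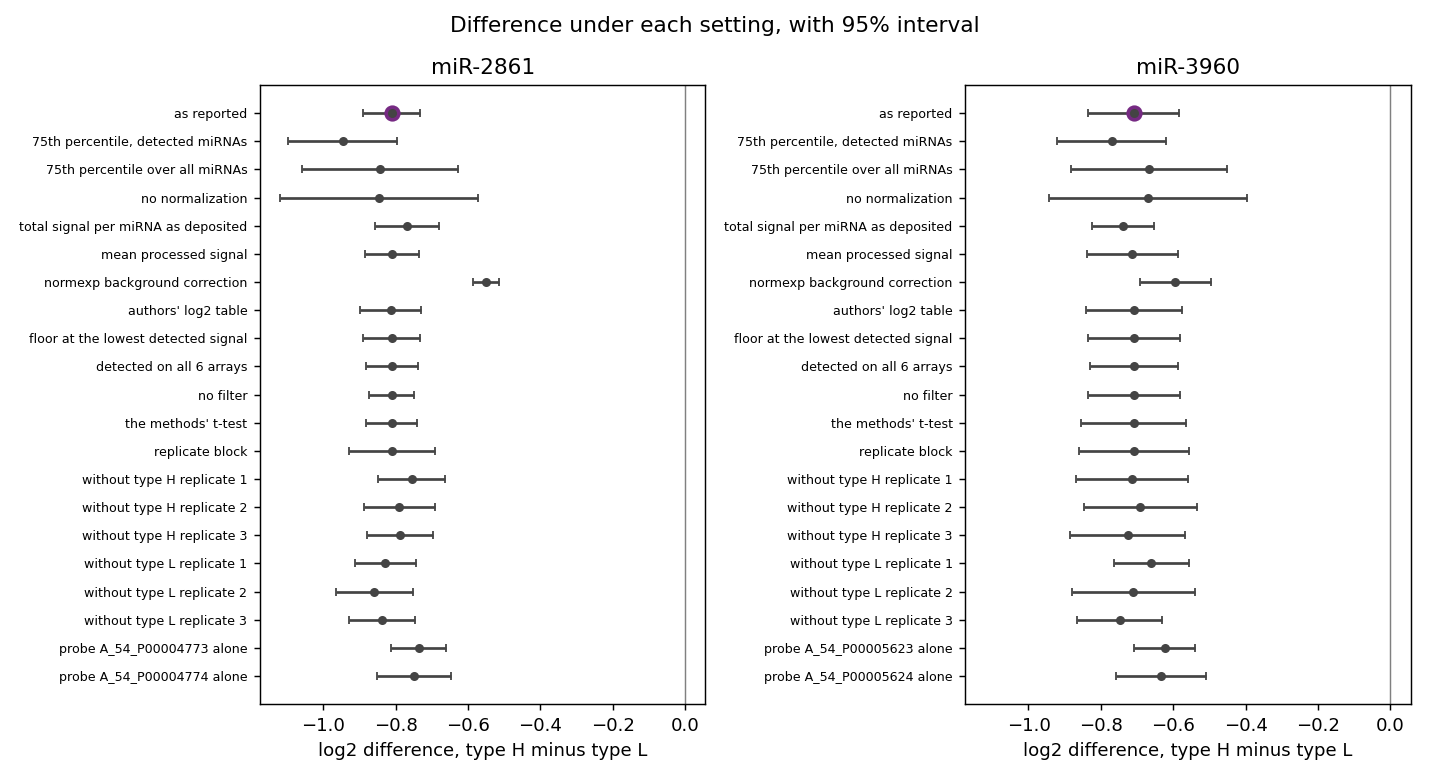
Points give the log2 difference of miR-2861 (left) and miR-3960 (right), type H minus type L, and lines its 95% interval, for the reported fit (large point) and each alternative named on the vertical axis. All intervals lie below 0, from -0.95 to -0.55 in their centres for miR-2861 and from -0.77 to -0.59 for miR-3960, and they are widest with no normalization between arrays.

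The probes of a miRNA gave nearly the same difference. For miR-2861 the 9-base probe had a mean total of 22.2 in type H and 40.6 in type L ECs, and its normalized log2 difference was -0.74 (SE 0.029, adjusted p = 4.26e-05). The 10-base probe had 20.6 and 36.2, with a difference of -0.75 (SE 0.039, adjusted p = 8.28e-05). The differences of these 2 probes lay 0.013 apart on the log2 scale.

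For miR-3960 the 11-base probe had a mean total of 56.1 in type H and 88.9 in type L ECs, with a log2 difference of -0.62 (SE 0.031, adjusted p = 7.74e-05). The 12-base probe had 57.6 and 91.4, with a difference of -0.63 (SE 0.047, adjusted p = 0.000233). These come from a limma fit over the 705 probes of the tested miRNAs, 37.7% of which were called lower in type H ECs. The gap between a miRNA's 2 probes was 0.010 for miR-3960, against a median of 0.12 over the 208 miRNAs that were detected on all 6 arrays and have 2 probes. In order from the smallest gap miR-3960 was at place 11 and miR-2861 at place 15. The probes of a member overlap in all bases but 1, so they are not independent readings of it.

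The spots behind these totals were bright and even. All 360 spots of both members over the 6 arrays were well above background, 0 were saturated and 9 were marked as outliers by the scanner software. The outlier spots were left out of the CVs, mean processed signals and ratios to background given here. The CV over the remaining spots of a probe on an array was 1.46 to 11.7%. Its lowest value came from the 9-base probe of miR-2861 on type L array 3, where 4 of 15 spots were outliers. The mean processed signal of a probe of miR-2861 was 89.6 to 115.2 on the type H arrays and 168.6 to 200.4 on the type L arrays. For miR-3960 it was 246.3 to 304.0 and 416 to 439.5. No type H probe mean reached the lowest type L probe mean of the same miRNA. The share of all miRNAs for which this holds was not counted, so it does not set the members apart. Relative to the local background, the signal of miR-2861 was 5.49 to 6.03 times as high on the type H arrays and 8.77 to 10.3 times on the type L arrays, and that of miR-3960 11.9 to 13.8 and 19.1 to 20.9 times.

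**Figure D3:**
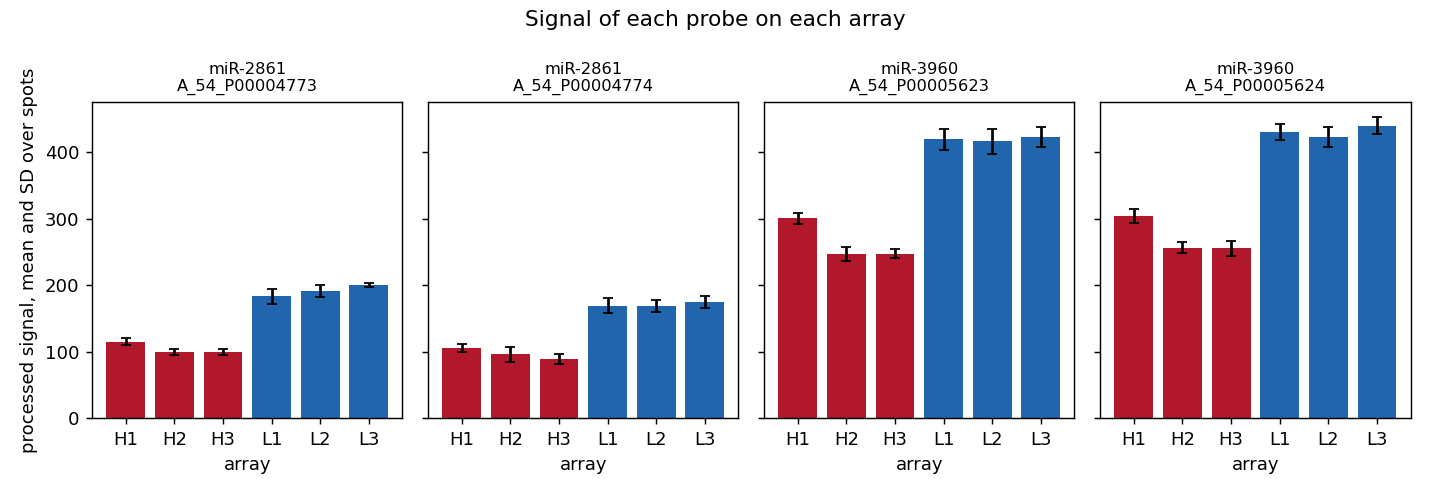
Bars, from 0, give the mean processed signal (intensity units) of each of the 4 probes on the 3 type H arrays (H1 to H3) and the 3 type L arrays (L1 to L3). Error bars give the SD over the probe's spots, and outlier spots are left out of both. In each panel the 3 type L bars stand above the 3 type H bars, and the panels of one miRNA show the same pattern over the arrays.

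On every array both members were among the brighter miRNAs. From the brightest, miR-2861 had ranks 81, 80 and 80 among the 281, 263 and 264 miRNAs detected on the type H arrays and ranks 59, 60 and 60 among 295, 309 and 298 on the type L arrays. MiR-3960 had ranks 51, 52 and 50 on the type H arrays and 31, 35 and 36 on the type L arrays. Both thus stood higher in the order of type L ECs. A rank orders signals, and different probes need not give the same signal for the same amount of RNA. Of the summed signal of all detected miRNAs, miR-2861 made up 0.0588 to 0.0611% in type H and 0.0961 to 0.0996% in type L ECs. MiR-3960 made up 0.152 to 0.162% and 0.224 to 0.233%. The ranks were 101 to 103 and 76 to 79 for miR-2861, and 66 to 67 and 39 to 44 for miR-3960, where the deposited total per miRNA was used, since that column adds signal to some other miRNAs. The deposited totals of both members equalled the sums of their own probes within a relative tolerance of 1e-05 on all 6 arrays.

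The members' differences were close in size. MiR-3960 minus miR-2861 within an array, on the normalized log2 scale, was 1.32, 1.21 and 1.28 in type H ECs (1.27 ± 0.054, SD, n = 3) and 1.23, 1.17 and 1.11 in type L ECs (1.17 ± 0.059). The cell types overlapped, since the second type H array lay below the first type L array. The difference of 0.10 gave p = 0.2 in an exact two-sided permutation test. With no normalization, where a linear scaling factor of an array cancels, the difference was 0.18 without overlap (exact permutation p = 0.1, the smallest that 3 against 3 arrays allow). With normexp it was -0.044 (exact permutation p = 0.4), so the direction of this small difference was not settled.

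Among the 311 tested miRNAs, 62 had a more negative difference than miR-2861 and 76 a more negative one than miR-3960. The 5 miRNAs whose centred log2 levels lay nearest to those of miR-2861 over the 6 arrays, out of 231, were miR-2137 (Euclidean distance 0.054, difference -0.79), miR-1982-5p (distance 0.13, difference -0.75), miR-211-3p (-0.72), miR-212-3p (-0.88) and miR-652-5p (-0.86). Nearest to miR-3960 were miR-1897-5p (distance 0.041, difference -0.74), miR-211-3p (0.084, -0.72), miR-7044-5p (0.10, -0.72), miR-467f (0.11, -0.74) and miR-7018-5p (0.11, -0.71). The distance between the members was 0.17, which put miR-3960 at place 9 among the miRNAs nearest to miR-2861 and miR-2861 at place 11 among those nearest to miR-3960. Several miRNAs encoded elsewhere were thus closer to each member than its neighbour in the genome was. With 2 groups of 3 arrays such a distance mainly orders miRNAs by the size of their difference.

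The miRNAs next to the members in level moved either way. Next above miR-2861 in mean signal was miR-7047-5p, with a difference of -0.13 that did not pass the test (adjusted p = 0.185, limma), and next below was miR-206-3p, a muscle miRNA, which was higher in type H ECs by 0.62. Next above miR-3960 was miR-652-5p, with a difference of -0.86, and next below was miR-322-5p, with one of 0.37. MiR-1954 and miR-8093, other miRNAs of the same stretch of chromosome 2 in the table, were detected on 0 arrays.

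Of 11 miRNAs described as acting on Runx2, 4 were detected and tested, and the other 7 were detected on no array. MiR-23a-3p was higher in type H ECs by 0.52 (adjusted p = 0.000129, limma) and miR-30c-5p by 0.26 (adjusted p = 0.000333), but after 75th percentile scaling miR-30c-5p was at -0.04 (adjusted p = 0.486). MiR-34c-5p was lower in them, with a difference of -0.20 (adjusted p = 0.0131), as was miR-218-5p with -0.68 (adjusted p = 3.5e-05). With 2 higher and 2 lower, beside 44.7% and 42.1% called over all tested miRNAs, these miRNAs held no common direction. Their median was 0.031, beside 0.026 over all tested miRNAs. With no normalization 2 of the 4 passed the test, beside 236 of all 311.

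Of 9 other miRNAs described as promoting osteoblast differentiation, 7 were tested, while miR-196a-5p and miR-335-5p were detected on no array. Of these, 4 were higher in type H ECs, the opposite direction to the members, beside 44.7% called higher among all tested miRNAs. They were miR-20a-5p, a miRNA of the miR-17-92 cluster, by 1.29, miR-15b-5p by 0.65, and miR-29b-3p and miR-29a-3p, which act on collagen and other matrix mRNAs, by 0.54 and 0.31. MiR-210-3p, which hypoxia induces, was lower, with a difference of -0.59, and so was miR-218-5p, which is on both lists, with -0.68. The third miR-29 miRNA, miR-29c-3p, was at 0.016 (adjusted p = 0.675), but at -0.15 after 75th percentile scaling (adjusted p = 0.0183). The median over the 7 was 0.31, beside 0.026 over all tested miRNAs, so miR-2861 and miR-3960 lay below it and on the side of miR-210-3p and miR-218-5p.

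MiRNAs rich in G and C, as miR-2861 is, were mostly lower in type H ECs where they were tested. Of 37 other miRNAs with at least 75% G and C in the mature strand, 10 were tested, of which 9 were lower and 1, miR-3620-3p, was higher by 0.99. Over all 311 tested miRNAs 42.1% were called lower. After 75th percentile scaling 9 of the 10 were lower, beside 56.6% of all tested miRNAs. The median over the 10 was -0.45, beside 0.026 over all 311, and -0.89 after 75th percentile scaling, beside -0.27 over all. Only the 249 tested miRNAs with a mature sequence in the table could enter this set, while the values beside it cover all 311. The 5 with the highest mean signal were miR-5126 (-0.37), miR-2137 (-0.79), miR-8101 (-0.29), miR-6538 (-0.52) and miR-3072-5p (-0.42). MiR-2137, the miRNA nearest to miR-2861 in its pattern, is 85.7% G and C and is printed because it holds GGCGG, as the members' hairpins do, in capitals.
MiR-2137 mature, chrX:72992113-72992133, plus strand: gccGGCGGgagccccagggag

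GGCGG, searched on the miRNA strand only with overlaps counted, occurred 3 times in mature miR-2861, 3 times in its hairpin and 5 times in the miR-3960 hairpin. It occurred in 20 of 1679 mature miRNAs of the table, 1.19%. Of the other holders 7 were tested, and 7 of 7 were lower in type H ECs, with a median of -0.48, beside 42.1% called lower and a median of 0.026 over all tested miRNAs. All 7 were also lower after 75th percentile scaling, where 56.6% of all tested miRNAs were. The search was made after the values had been seen. It too could reach only the 249 tested miRNAs with a mature sequence, while the values beside it cover all 311. MiR-2137, miR-5126, miR-6538 and miR-149-3p are also among the tested GC-rich miRNAs, so the sets overlap and are not separate observations. Of 15 other tested miRNAs with no probe over 12 bases, a limit also set after the values had been seen, 10 were lower and 3 higher, with a median of -0.37, beside 131 lower and 139 higher of all 311 and their median of 0.026. MiR-5126, which shares 8 letters with the miR-2861 probe site, was read at 8.83, 8.94 and 8.94 on the normalized log2 scale in type H ECs and at 9.21, 9.21 and 9.39 in type L ECs. Its difference was -0.37 (adjusted p = 0.00257, limma), against -0.81 for miR-2861. Whether G and C content, probe length or a shared stretch of sequence has a part in the members' differences was not tested.

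**Figure D4:**
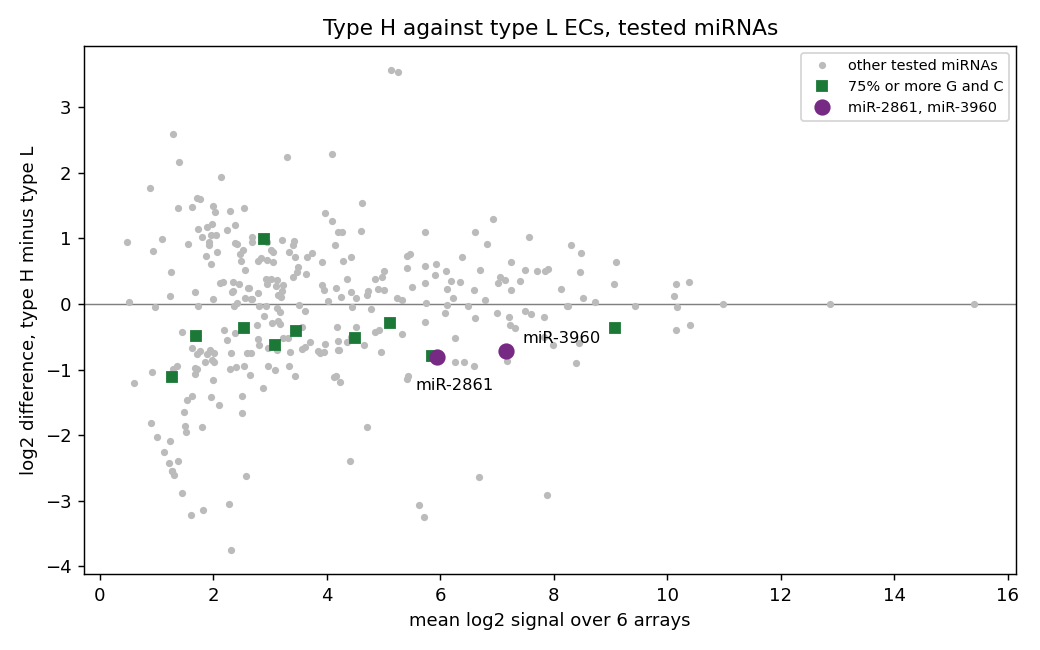
Each point is 1 of 311 tested miRNAs, with its mean log2 signal over the 6 arrays on the horizontal axis and its log2 difference, type H minus type L, on the vertical axis. MiR-2861 (-0.81) and miR-3960 (-0.71) are large points, and 9 of the 10 squares, miRNAs with at least 75% G and C, lie below 0 as they do. The median over all 311 was 0.026.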

How the data were processed

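The authors hybridised Cy3-labelled RNA to 1-colour Agilent mouse miRNA arrays and extracted spot intensities with Feature Extraction 10.7.1.1. The deposited intensity columns are background-subtracted and not normalized between arrays. The authors' log2 table, which their methods describe as quantile-normalized, holds 1902 features, and its column medians were -3.30, -3.26 and -3.26 (type H) and -3.31, -3.32 and -3.32 (type L). Against the scanner values its scale was log2 and its direction that of the signal, while the offset of its lowest values is unknown. The labels describe amplified cRNA and the methods labelled small RNA, and the array design number in the header is not that of the methods.

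A miRNA's signal was the sum of the total signals of its distinct probes. After quantile normalization over 1881 miRNAs and a floor of 1, values were put on the log2 scale. The 311 miRNAs that were detected on every array of type H, of type L or of both were fitted with limma 3.58.1 (R 4.3.3) on the 6 arrays together, and adjusted p-values (Benjamini-Hochberg) under 0.05 were called. Probes were fitted in the same way. In the limma fits, p-values rest on the spread between arrays of a cell type, which share 1 slide, and on the spread shared over miRNAs. How far that covers the spread between mice is unknown, and the number of arrays limits the precision.

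The members, the lists and the alternatives (normalization, signal, background correction, filter, floor, test, replicate block, each array left out, each probe alone) were chosen with earlier results of these data known. Named miRNAs were the members, tested miRNAs of the 2 osteoblast lists, the 5 brightest GC-rich miRNAs, the 5 most alike to each member, seed sharers and signal neighbours. MiR-126a, miR-145a-5p, miR-149-3p, miR-196a-5p, miR-335-5p, miR-3620-3p, miR-1954 and miR-8093 were named outside that rule, after their values had been seen. Sequences and positions are RefSeq's, on GRCm38.p6, while the file header names mm9, and no coordinates of the files were used. Of 311 tested miRNAs, 249 had a mature sequence in that table. A genome sequence was not used here.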

Additional observations from a re-analysis of the deposited data

How the results depend on the processing

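Both members were lower in type H ECs and past the threshold under all 20 alternatives computed for each. The difference ranged from -0.95 to -0.55 for miR-2861 (adjusted p 8.06e-14 to 0.000387, limma or the methods' t-test) and from -0.77 to -0.59 for miR-3960 (adjusted p 3.35e-09 to 0.000883). With no normalization limma gave both the same SE, 0.139, as it shared one spread over all miRNAs. With 75th percentile scaling over all miRNAs it also gave both one SE, 0.110. The lowest adjusted p-values of both members come from that fit and rest on the shared spread. Leaving out each array in turn gave -0.86 to -0.76 and -0.75 to -0.66, 0.040 to 0.17 for miR-3960 minus miR-2861 between cell types, and 261 to 272 miRNAs past the threshold. It gave 3 to 4 Runx2-targeting, 6 to 6 osteoblast-promoting and 8 to 10 GC-rich miRNAs, and 4 to 4 probes of the members. All 4 probes passed in every one of 8 alternatives. An arm left with 2 arrays shares the spread of the other.

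MiR-3960 minus miR-2861 turned to -0.044 with normexp (exact permutation p = 0.4). Without the detection filter 413 miRNAs passed, in a fit where most miRNAs lie at the floor on every array and have no spread. The count of Runx2-targeting miRNAs was 2 after 75th percentile scaling over all miRNAs and 2 with no normalization, and that of GC-rich miRNAs was 6 with the totals as deposited. Causes were not tested. Of 311 tested miRNAs, 139 were higher and 131 lower as reported, 98 and 176 after 75th percentile scaling over detected miRNAs, and 95 and 141 with no normalization.

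The labels do not say whether same-numbered arrays of the cell types came from the same mice, and the main fit did not pair them. The correlations of their deviations were -0.0055, -0.025 and 0.12. With so few arrays these values cannot show whether the samples were paired. With the replicate number as a block the adjusted p was 0.000387 for miR-2861 and 0.000883 for miR-3960 by limma, and 262 miRNAs were past the threshold. The block changed no call of a member. With 3 arrays on 1 slide per cell type, no alternative separates slide from cell type.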
